A study of Mus musculus with 32 samples.

Results

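The cardiac sarcomere genes described here are 10 genes named by symbol: Myh6, Myh7, Myl2, Myl3, Myl7, Tnni3, Tnnt2, Tnnc1, Actc1 and Ttn. They were found as exact matches in the gene column of each of the 5 organ tables, 10 of 55289 named genes, and no measured value is part of this rule. All 10 were present in every table, 8 had values and entered the tests in all 5 tables, and Tnnc1 and Actc1 were listed at 0 throughout. The assay was degradome sequencing, which ligates an adapter to the 5′ end of uncapped poly(A) RNA and cuts a short tag from it, so a value counts uncapped RNA ends and not whole transcripts.

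The sarcomere is the contractile unit of striated muscle. Thick filaments are built from myosin heavy chains, each carrying light chains, and pull on thin filaments of actin, while the troponin complex on the thin filament switches this pulling on in the presence of calcium. Titin is a giant protein that spans from the Z-disc, which anchors the thin filaments, to the M-band in the middle of the thick filament. Ftsj1 is a methyltransferase that adds a 2′-O-methyl group to transfer RNAs.

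The animals were male mice aged 4 months, without special treatment, and their organs were taken whole. One genotype was Ftsj1-deficient (labelled Ftsj1_DF) and the other wild type (labelled WT). The allele and the strain are not given in the sources used here. Brain, heart, kidney and liver came from the same 6 mice, and each genotype had 3 libraries in each of these organs. Another 8 mice gave the spleens, which made 4 libraries for each genotype. Per the labels, the mice formed sets of brothers.

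Each of the authors' deposited tables holds, per gene, a single mean of normalized tag counts over all libraries of an organ, a log2 fold change with its standard error (SE), and an adjusted p from DESeq2. Values per library are not analysed here, so the spread between animals enters only through the SE. Ftsj1 itself was negative in all 5 tables, and a positive value is therefore read as higher in the deficient mice. In heart its log2 fold change was -1.72 ± 1.03 (SE, DESeq2 adjusted p = 0.594) and in kidney -1.56 ± 0.61 (adjusted p = 0.202), neither past the threshold, whereas it passed in the other 3 tables with -2.84, -3.17 and -3.38. The direction in heart and kidney is read as in those tables. The table titled for brain held hepatocyte transcripts and the table titled for liver held neuronal transcripts. They are called brain-named and liver-named here. The heart table held the sarcomere genes, with 8.49% of its summed means in these 10 genes, against 0.0176% in the brain-named table, 0.0295% in kidney, 0.0337% in the liver-named table and 0.0222% in spleen. In whole organs, fewer cells of a type and less RNA per cell cannot be told apart.

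The promoters of 3 members are shown because they alone among the 10 hold a CArG box, the element bound by serum response factor, a regulator of muscle genes. Each stretch is the 250 bases before the RefSeq start on build GRCm38.p6, read 5′ to 3′ on the gene's strand. Capitals mark a CArG box and the sequence CATTCC on either strand, the core bound by TEAD factors.
Myl3 (chr9:110763428-110763677, plus strand): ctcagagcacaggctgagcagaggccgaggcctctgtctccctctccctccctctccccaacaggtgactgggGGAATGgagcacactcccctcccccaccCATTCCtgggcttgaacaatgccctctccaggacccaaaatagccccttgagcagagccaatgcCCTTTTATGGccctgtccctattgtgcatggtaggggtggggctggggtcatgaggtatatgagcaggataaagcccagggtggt
Myl7 (chr11:5898783-5899032, minus strand): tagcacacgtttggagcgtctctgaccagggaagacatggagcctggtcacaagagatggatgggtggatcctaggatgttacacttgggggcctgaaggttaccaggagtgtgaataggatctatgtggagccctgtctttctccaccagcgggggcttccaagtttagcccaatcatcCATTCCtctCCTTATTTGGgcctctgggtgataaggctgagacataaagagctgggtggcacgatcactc
Actc1 (chr2:114052876-114053125, minus strand): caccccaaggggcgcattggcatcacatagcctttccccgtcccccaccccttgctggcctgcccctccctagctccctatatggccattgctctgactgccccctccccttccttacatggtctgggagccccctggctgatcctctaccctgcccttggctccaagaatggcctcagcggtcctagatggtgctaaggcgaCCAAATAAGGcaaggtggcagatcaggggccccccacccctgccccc

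The first base of the CArG box lay 85 bases before the start in Myl3, 61 in Myl7 and 47 in Actc1. Of all 27025 genes with such windows, 1.62% held a CArG box in at least 1 window, against 3 of the 10 members. CATTCC was found in 6 of 10 members (Myh6, Myh7, Myl3, Myl7, Tnnt2 and Tnnc1) and in 14.4% of genes. TATAAA, the TATA box core, occurred as an exact match in Myl2 alone and in 14.3% of genes. In Myl2 it lay on the opposite strand of window 2, beginning 216 bases before the start. Other spellings of a TATA box were not searched. AGATAA, the core bound by the blood and heart zinc finger factors such as Gata4, occurred in Myl2 and Tnnt2 and in 11.4% of genes. The consensus of the MEF2 factors occurred in Ttn and in 3.42% of genes. Both strands were searched, and a match says only that these letters are present in the window.

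Some myosin heavy chain genes also carry microRNAs in their introns. Their mature forms are shown with the seed, bases 2 to 8, in capitals, because the seed sets the targets they share.
mmu-miR-208a-3p (in Myh6, chr14:54949072-54949093, minus strand): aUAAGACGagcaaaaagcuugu
mmu-miR-208b-3p (in Myh7, chr14:54975710-54975731, minus strand): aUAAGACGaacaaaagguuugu
mmu-miR-499-5p (in Myh7b, chr2:155622893-155622913, plus strand): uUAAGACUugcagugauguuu

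The seeds of miR-208a and miR-208b are identical, and that of miR-499 differs from them in its last base. All 3 microRNA genes, Mir208a, Mir208b and Mir499, were listed at 0 in all 5 tables, including heart, where the host genes Myh6 and Myh7 had values. Mhrt, a long noncoding RNA that overlaps Myh7 in the annotation, had a mean of 210 in heart. How the authors' counting treated tags in overlapping or near-identical genes is not given in the sources used here. RefSeq places Cmtm5 and Gm52092 besides Mir208a over Myh6, Gm31251 besides Mhrt and Mir208b over Myh7, and Ccdc63 over Myl2, and no gene over the other 7 members. Myh6 and Myh7 are near-identical copies of each other in much of their coding sequence, as are Actc1 and the skeletal actin Acta1, so the split of short tags within these pairs is uncertain.

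In heart, uncapped tags of all 8 measured sarcomere genes were far above their level in any other organ table, and no difference between genotypes passed the authors' adjusted p of 5%. The smallest estimates belonged to Tnni3, Myl2 and Ttn, with log2 fold changes within 0.02 of zero. The largest in size were negative and belonged to Myh7 and Myl7. In the heart table as a whole, 1.19% of 19847 tested genes passed. None of the 8 members passed in the authors' DESeq2 test, and none had an unadjusted p under 0.05. Of the 8 estimates, 4 were positive and 4 negative, with a median of -0.07, and over all tested genes 48.9% were negative with a median of 0.01. Means per genotype given below were derived from the deposited mean and fold change for equal group sizes. Levels are not per length and are not compared between genes.

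Myh6 encodes the alpha heavy chain, the fast motor of the adult mouse heart. Its mean in heart was 625751 normalized tags in the authors' deposited table, which corresponds to 657080 in wild-type and 594422 in deficient mice. The log2 fold change was -0.14 ± 0.25 (SE, n = 3 per genotype, DESeq2 adjusted p = 0.911). The coefficient of variation between libraries implied by the SE was 21.1%, larger than the difference between the genotypes.

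Myh7 encodes the beta heavy chain, the slower motor that predominates in the fetal mouse ventricle and is re-expressed in the stressed adult heart. Its deposited mean was 30420, or 38348 in wild-type and 22492 in deficient mice. This was the largest difference among the members, a log2 fold change of -0.77 ± 0.48 (SE, n = 3 per genotype, DESeq2 adjusted p = 0.627). Myh7 also had the largest coefficient of variation implied by the SE among the members, 40.8%, which was not measured from values per library. The 95% interval ran from -1.71 to 0.17 and so holds both no change and a fall to 0.305 of the wild-type level.

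The light chains stabilise and tune the myosin head. Myl2, the regulatory light chain of the ventricle, had a deposited mean of 26546 and a derived level of 26507 in wild-type and 26585 in deficient hearts. Its log2 fold change was 0.0042 with an interval from -0.57 to 0.58. Myl3, the essential light chain of the ventricle, had a deposited mean of 1867438. It stood at 1789253 in wild-type and 1945623 in deficient mice, a log2 fold change of 0.12 ± 0.25 (SE, n = 3 per genotype, DESeq2 adjusted p = 0.928). Myl7, the regulatory light chain of the atrium, had a deposited mean of 137962, with 163504 in wild-type and 112421 in deficient mice. Its log2 fold change of -0.54 ± 0.36 (SE, n = 3 per genotype, DESeq2 adjusted p = 0.656) was the second largest in size among the members, with an interval from -1.24 to 0.16.

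Atria and ventricles were sampled together, and the amount of atrium in each piece of tissue was not measured. Other genes of the atrium were read from the same table beside Myl7. Myl4, the atrial essential light chain, had a log2 fold change of -0.28 ± 0.29, Sln, the atrial inhibitor of the calcium pump, of -0.50 ± 0.32, and Nppa, the atrial natriuretic peptide, of -0.47 ± 0.43 (SE, n = 3 per genotype). Bmp10, a growth factor of the right atrium, had 0.01 ± 0.50, and Kcnj3, an atrial potassium channel subunit, 0.41 ± 0.34. None passed, with DESeq2 adjusted p of 0.825, 0.635 and 0.800 for Myl4, Sln and Nppa. Beside Myh7, the stress-associated genes Nppb, the B-type natriuretic peptide, and Acta1, the skeletal actin, had log2 fold changes of -0.66 ± 0.44 and -0.58 ± 0.55 (DESeq2 adjusted p of 0.666 and 0.805). Their part in the estimates for Myl7 and Myh7 was not tested.

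The troponin complex has an inhibitory, a tropomyosin-binding and a calcium-binding subunit. Tnni3, the cardiac inhibitory subunit, had a deposited mean of 1547406, with 1546629 in wild-type and 1548183 in deficient mice. This was the most even of the members, with a log2 fold change of 0.0014, an interval from -0.44 to 0.45 and the lowest implied coefficient of variation, 19.2%. Tnnt2, the cardiac tropomyosin-binding subunit, had a deposited mean of 30044, with 31745 in wild-type and 28343 in deficient mice. Its log2 fold change was -0.16 ± 0.25 (SE, n = 3 per genotype, DESeq2 adjusted p = 0.896).

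Tnnc1, the calcium-binding subunit shared by heart and slow muscle, and Actc1, the cardiac actin, were listed at 0 in all 5 tables, also in heart. Some other well-known genes were also listed at 0 in these tables. Of 21218 protein-coding genes matched by symbol to RefSeq, 1456 (6.86%) were at 0 in all 5 tables, among them B2m, a gene that nearly every cell uses. Gapdh, another such gene, had a mean of 4.59 in heart. Other such genes had values there, with 46.3 for Ppia, 808 for Actb, 23222 for Eef1a1 and 38829 for Rplp0. The heart genes Pln, Cox6a2 and Xirp1 were at 0 in all 5 tables as well. The zeros are therefore given as listed values and not as levels of the transcripts.

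Ttn had a deposited mean of 15285 in heart, with 15209 in wild-type and 15361 in deficient mice. Its log2 fold change was 0.01 ± 0.29 (SE, n = 3 per genotype, DESeq2 adjusted p = 0.996), with an interval from -0.56 to 0.58.

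**Figure D1:**
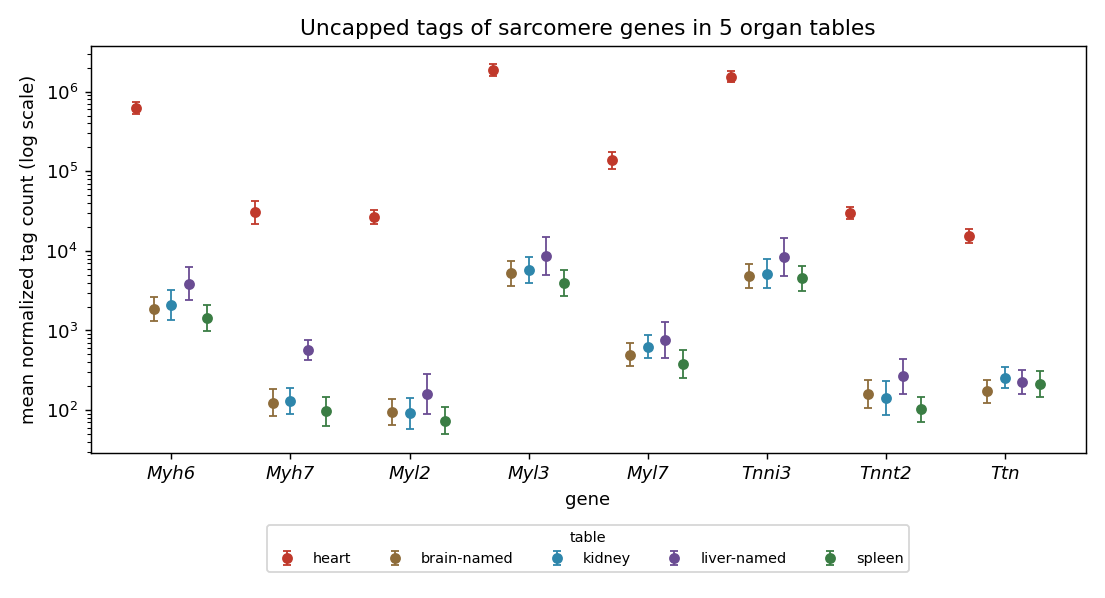
Deposited mean of normalized tag counts (log scale) for the 8 measured sarcomere genes in the 5 tables; points are the authors' means over all libraries of a table and bars are 95% intervals derived from the deposited standard error. Every gene is highest in heart, from 15285 for Ttn to 1867438 for Myl3, and far lower in the 4 other tables. Among those 4, the liver-named table is highest for every gene except Ttn, by the widest ratio for Myh7, at 569.

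Outside the heart table the same 8 genes were present at a small share of their heart level, and they passed the filter for testing in every table. The share had a median of 0.357% in the brain-named table (range 0.280% to 1.13%), 0.386% in kidney (0.311% to 1.67%), 0.614% in the liver-named table (0.465% to 1.87%) and 0.286% in spleen (0.213% to 1.38%). Expressed as a ratio, heart exceeded the other tables by a median of 281-fold, 262-fold, 163-fold and 350-fold in the same order. With a scaling factor taken from genes present in all tables, the median ratio was 403-fold to the liver-named and 449-fold to the kidney table. Heart ranked highest for all 8 members, in each case by more than 2 SE of the difference of the log2 means. This SE was derived from the deposited SE of the fold change. It leaves out the shared mice and the error of scaling between tables, so comparisons of levels between tables are descriptions and not tests.

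The order among the 4 other tables is described with the same SE. Of 24 neighbouring pairs outside heart, 23 did not differ by more than 2 SE. Neighbours were set by the same means, which keeps their differences small. Of all 48 pairs outside heart, 9 did, in each of which the liver-named table was the higher, 6 of them over spleen. Myh6 stood higher there than in spleen by 1.43 ± 0.44 (SE) on the log2 scale and Tnnt2 by 1.39 ± 0.46. With a scaling factor taken from genes present in all tables, 6 of 48 pairs differed, 3 for Myh7, with the liver-named table higher, and 3 for Ttn, with it lower. In the deposited means the liver-named table came second for 7 of 8 members and spleen last for 7 of 8. With that scaling factor these counts were 1 of 8 and 0 of 8. Heart remained first for 8 of 8 members under each of the 3 other scalings.

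The single neighbouring pair that differed was Myh7 in the liver-named table, at 569, over kidney, at 131, by 2.12 ± 0.34 (SE) on the log2 scale. The ratio of the liver-named to the kidney level was 4.35 for Myh7 and between 0.877 and 1.90 for the other 7 members. Under the scaling factor from shared genes it was 3.01 for Myh7 and 0.607 to 1.31 for the others. The related heavy chain Myh7b, the host of miR-499, had a liver-named level of 2084, which is 67.5 times its kidney level and above its heart level of 1102. Myh7b and Myh7 tags that map to shared sequence were not separated here.

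By member, the deposited means outside heart ran as follows. Myh6 had 1442 in spleen, 1874 in the brain-named, 2081 in the kidney and 3894 in the liver-named table. Myl3 had 3973, 5230, 5801 and 8681 in the same order. Tnni3 had 4563, 4792, 5196 and 8387. In the deposited means all 3 genes thus kept 1 order of tables, spleen lowest and liver-named highest, although neighbours in it overlapped in their error. With the scaling factor from shared genes spleen was last for 0 of 8 members, so this order was not kept.

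Myl7 had 377 in spleen, 498 in the brain-named, 629 in the kidney and 751 in the liver-named table. Myh7 had 96.4, 124, 131 and 569, and Myl2 had 73.6, 93.5, 90.8 and 161 in the same order. Tnnt2 had 102, 158, 141 and 267. Myl2 and Tnnt2 thus stood higher in the brain-named than in the kidney table, within their error. Ttn had neither spleen lowest nor the liver-named table highest, with 211 in spleen, 172 in the brain-named, 255 in the kidney and 224 in the liver-named table. The share of its heart level was above 1% in all 4.

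**Figure D2:**
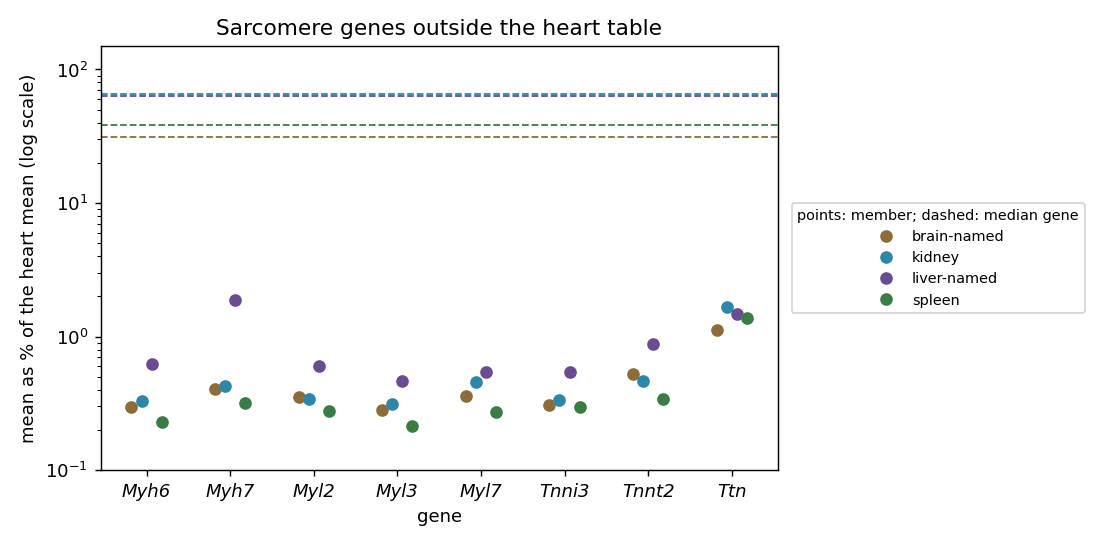
Mean of each sarcomere gene in the 4 other tables as a percentage of its heart mean (log scale); points are single genes and dashed lines are the median over the 697 genes with a heart mean of at least 10000. Members lie between 0.213% and 1.87%, and the dashed medians lie between 31.3% and 65.9%.

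These shares were set against the 697 genes with a heart mean of at least 10000. Their median share of the heart level was 31.3% in the brain-named table, 65.9% in kidney, 63.6% in the liver-named table and 38.1% in spleen. The lowest share in spleen belonged to Myl3 itself, at 0.213%. In the other tables the lowest was Ckm, muscle creatine kinase, at 0.242% in the brain-named table, Mybpc3, cardiac myosin-binding protein C, at 0.277% in kidney, and Myom2, a protein of the M-band, at 0.429% in the liver-named table. Ttn was further from the bottom, with 52, 39, 36 and 52 of the 697 genes below it in the brain-named, kidney, liver-named and spleen tables.

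Shares of this size were also found for some marker genes of other organs. Only genes with a mean of at least 1000 in the table their share refers to were used. This kept 11 hepatocyte, 11 acinar, 9 proximal tubule, 9 B cell and 8 neuron genes, each only through the table where it was high. In heart, 11 genes of pancreatic acinar cells stood at 0.121% to 0.222% of their spleen level, and hepatocyte genes had a median of 0.160% of their brain-named level, with a range of 0.104% to 1.92%. Genes of the proximal tubule had a median of 0.135% of their kidney level, with a range of 0.0820% to 40.9%. Other lists stood higher, with medians in heart of 0.806% for neuron genes (up to 4.81% of their liver-named level) and 0.705% for B cell genes (up to 4.37% of their spleen level). Acinar genes had a median of 6.60% of their spleen level in the brain-named table. Whether tags of one organ reached the libraries of another was not tested.

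The genotype difference outside heart did not pass for any member in any table. The percentage of all tested genes that passed was 0.414% in the brain-named table, 2.07% in kidney, 0.203% in the liver-named table and 0.217% in spleen. Members passing numbered 0 of 8 in each by the authors' DESeq2 test, and 0 of 8 in each had an unadjusted p under 0.05. The 95% interval held 0 for 8 of 8 members in each of the 5 tables.

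Within most tables the members' estimates shared a sign, although none passed. In the brain-named table all 8 estimates were positive with a median of 0.43, whereas over all tested genes 46.7% were negative and the median was 0.04. In kidney all 8 were negative with a median of -0.60, against 50.9% of tested genes negative and a median of -0.01. In the liver-named table all 8 were negative with a median of -0.17, against 52.9% and a median of -0.05. In spleen 7 of 8 were negative with a median of -0.15, against 50.5%. Markers of some other cell types leaned the same way in the brain-named table, with 9 of 9 acinar genes positive (median 4.19, 9 at an unadjusted p under 0.05), of which Amy2a5, a pancreatic amylase, passed with 2.63 ± 0.69 (DESeq2 adjusted p = 0.0425). There, 11 of 11 hepatocyte genes (median 0.60) and 6 of 6 erythroid genes (median 0.74) were positive as well. So were 8 of 9 macrophage genes (median 0.35) and 8 of 10 proximal tubule genes (median 0.47). Neuron, fibroblast and smooth muscle genes had 6 of 9 positive each. Other lists did not lean this way, with 2 of 9 B cell, 2 of 6 adipocyte and 4 of 10 endothelial genes positive. Their medians were -0.18, -0.37 and -0.02. In kidney, 9 of 10 neuron genes and 9 of 11 hepatocyte genes were negative, with medians of -0.48 and -0.35. Also negative were 8 of 11 acinar, 7 of 10 smooth muscle, 6 of 9 macrophage, 6 of 10 endothelial and 4 of 6 erythroid genes. By contrast, 6 of 10 proximal tubule, 5 of 8 adipocyte, 5 of 9 B cell and 5 of 9 fibroblast genes were positive there. What these lists contribute to the members' estimates was not tested.

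Myh6 shows the range of these estimates. Its log2 fold change was 0.45 ± 0.52 in the brain-named table, -0.56 ± 0.63 in kidney, -0.24 ± 0.70 in the liver-named table and -0.04 ± 0.55 in spleen (SE, n = 3 per genotype, 4 in spleen). In kidney this corresponded to 2480 in wild-type and 1683 in deficient mice, and in the brain-named table to 1583 and 2165. The SE in these tables was more than 2 times that of 0.25 in heart. Tnnt2 in kidney had the estimate of largest size among all 40 values, -0.96 ± 0.72 (DESeq2 adjusted p = 0.686).

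The errors of Myh7 and Ttn were the smallest of the members in the liver-named table. Myh7 stood there at -0.16 ± 0.41 and Ttn at -0.13 ± 0.50, and in kidney Myh7 stood at -0.80 ± 0.55. Ttn also had the smallest error in the brain-named table, at 0.65 ± 0.48 (DESeq2 adjusted p = 0.708), and in kidney, at -0.56 ± 0.43. The implied coefficient of variation between libraries was 19.2% to 40.8% over the members in heart, and it was 39.8% to 50.6% in the brain-named table, 36.2% to 60.9% in kidney, 34.6% to 71.6% in the liver-named table and 52.2% to 61.1% in spleen. The implied variation was lowest in heart for 7 of the 8 members, and for Myh7 it was lowest in the liver-named table.

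**Figure D3:**
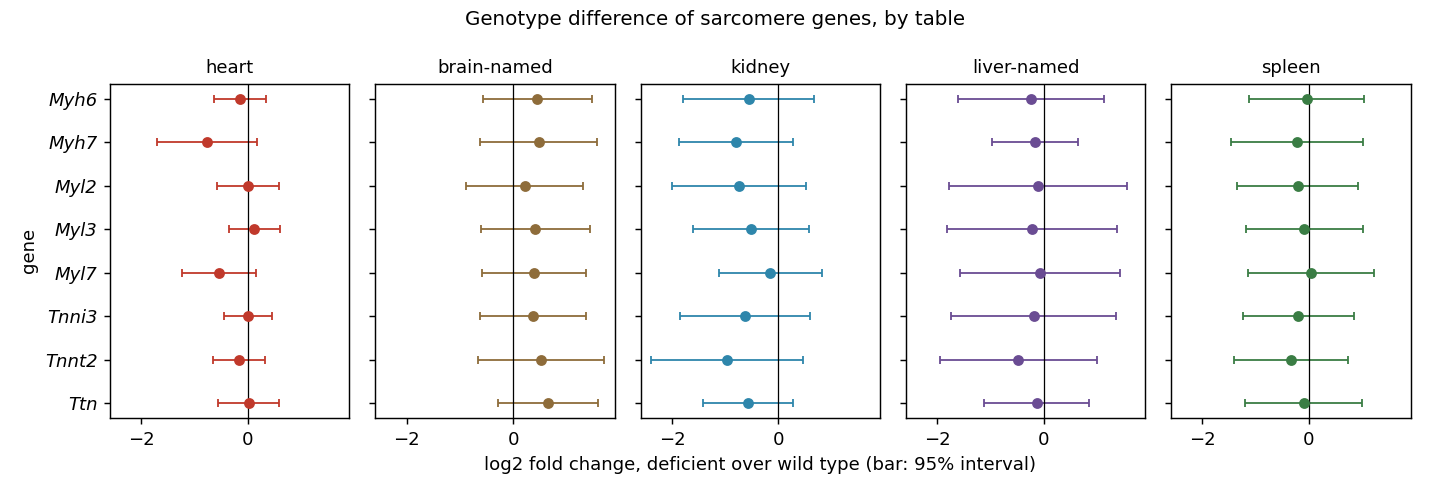
Log2 fold change of deficient over wild-type mice for the 8 measured sarcomere genes, 1 panel per table; points are the authors' estimates and bars are 95% intervals from the deposited standard error. All 40 intervals cross 0; points lie right of 0 in the brain-named panel and left of it in the kidney panel, and the bars are shortest in heart for 7 of the 8 genes.

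The leaning to a sign was also present in other genes with a heart mean of at least 10000 that stood under 1% of that level in the table in question. Of the members, 6 met this by their liver-named level and 7 by their level in kidney, spleen or the brain-named table. This class was drawn up after the values were seen and has no test. Among brain-named values 36 of 41 such genes outside the members were positive with a median of 0.33, and in kidney 20 of 27 were negative with a median of -0.41. Among liver-named values 17 of 22 were negative and in spleen 22 of 34, with medians of -0.16 and -0.09. None of them passed in any table. How much heart-derived RNA each library held was not tested.

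A difference of the genotype effect between heart and each other table was computed for all genes tested in both, 72036 differences in all, with a z from the deposited standard errors and Benjamini-Hochberg adjustment over all of them. Heart, brain, kidney and liver came from the same mice, which this z does not take into account. The share of all differences that passed was 0.367% against the brain-named, 0.481% against the kidney, 0.229% against the liver-named and 0.17% against the spleen table. Members passing numbered 0 of 8 in each, and 0 of 8 had an unadjusted p under 0.05. The largest was Myh7 in heart minus the brain-named table, -1.25 ± 0.74 (SE), with an interval from -2.69 to 0.20 and an adjusted p of 0.703.

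Other sarcomere genes in heart were taken from lists by structure. None of 13 further genes of the thick filament and M-band passed (DESeq2, 0 at an unadjusted p under 0.05), with 8 positive, 5 negative and a median log2 fold change of 0.15. Mybpc3 stood at 0.26 ± 0.29, and Myom1 and Myom2, which cross-link thick filaments at the M-band, at 0.16 ± 0.31 and 0.04 ± 0.22. None of 7 further thin filament genes passed (0 at an unadjusted p under 0.05), with 4 positive and a median of 0.14. Tpm1, the tropomyosin that covers the myosin sites on actin, had 0.25 ± 0.22, and Lmod2, a nucleator of actin filaments, -0.24 ± 0.21. Nebl, the cardiac relative of nebulin, had 0.14 ± 0.34. In heart 1.19% of all tested genes passed, so lists this short say little about thick and thin filament genes as a class.

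Of 19 Z-disc genes none passed in heart (2 at an unadjusted p under 0.05), with 9 positive, 10 negative and a median of -0.0041. Myoz2, which tethers calcineurin to the Z-disc, had -0.03 ± 0.26, Csrp3, a LIM protein of the Z-disc, -0.07 ± 0.21, and Cryab, a small heat shock protein, -0.05 ± 0.30. Of 13 genes for sarcomere assembly none passed (2 at an unadjusted p under 0.05), although 12 were positive, with a median of 0.28. Unc45b, a myosin chaperone, had 0.28 ± 0.30, Smyd1, a methyltransferase needed for myofibril assembly, 0.25 ± 0.26, and Hspb7, a small heat shock protein, 0.13 ± 0.24. Of 19 genes of cardiomyocytes outside the sarcomere none passed (0 at an unadjusted p under 0.05), with 11 positive and a median of 0.01. Ckmt2, the mitochondrial creatine kinase, had 0.17 ± 0.22, and Atp2a2, the calcium pump of the sarcoplasmic reticulum, 0.39 ± 0.23.

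In the other tables these 4 sarcomere lists gave 2 passing genes, both Z-disc genes in kidney. Pdlim5, a PDZ and LIM domain protein, rose there with a log2 fold change of 0.87 ± 0.23 (mean 4415, DESeq2 adjusted p = 0.0123). Mypn, myopalladin, fell with -1.48 ± 0.43 (mean 422, DESeq2 adjusted p = 0.0347). They were 2 of 18 tested Z-disc genes in kidney, where 2.07% of all tested genes passed, and 12 of the 18 were negative. The kidney mean was 178% of the heart mean for Pdlim5 and 12.1% for Mypn, against 0.311% to 1.67% for the members. With the test statistic divided by its spread over all genes, neither passed (adjusted p of 0.0807 for Pdlim5 and 0.158 for Mypn).

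Genes of other cell types, of the heart and of other organs, were read beside the members in the heart table. Of 10 endothelial genes 8 were positive with a median of 0.14, of 9 fibroblast and matrix genes all 9 were negative with a median of -0.25, and of 9 macrophage genes 5 were positive with a median of 0.33. Of 10 smooth muscle genes 4 were positive with a median of -0.32, and of 6 erythroid genes all 6 were positive with a median of 0.45. Of 8 adipocyte genes 7 were negative with a median of -1.85, and 6 had an unadjusted p under 0.05. Of 10 genes of hepatocytes, a cell type of another organ, all were negative with a median of -0.74. No gene of these 7 lists passed in heart by DESeq2. Of 8 B cell genes 1 passed, Ighm, the heavy chain of immunoglobulin M, which fell with a log2 fold change of -2.28 ± 0.66 (DESeq2 adjusted p = 0.0481), and the list had 5 negative genes and a median of -0.76. Ighm did not pass with that rescaled statistic (adjusted p = 0.250). Further lists of other organs also had more negative genes in heart, 10 of 11 acinar, 8 of 10 neuron and 8 of 10 proximal tubule genes. Their medians were -0.46, -0.13 and -0.46, and none of these genes passed. The part of these cell types in the members' estimates was not tested.

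**Figure D4:**
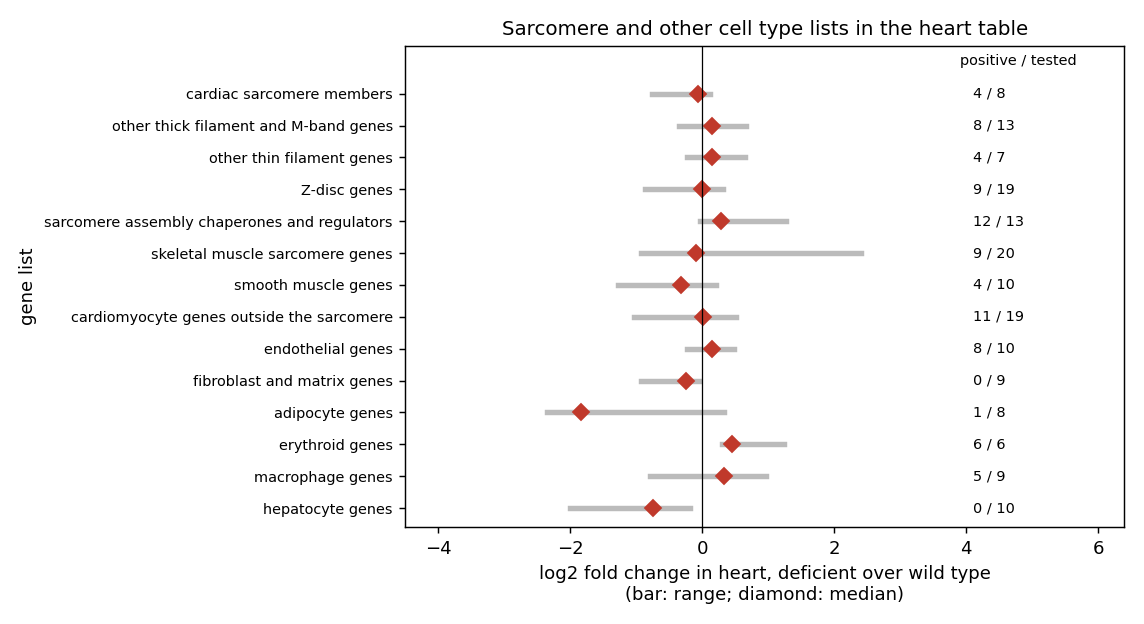
Log2 fold change in heart, deficient over wild type, for the sarcomere members and 13 lists of other genes; bars span the lowest to the highest gene of a list, diamonds are medians, and the numbers at the right count positive and tested genes. The members and the 4 sarcomere lists under them have medians from -0.07 to 0.28, and adipocyte genes lie lowest with a median of -1.85. The neuron, proximal tubule, acinar and B cell lists are not drawn.

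Skeletal, smooth muscle and atrial paralogs of the members were read in heart as well, and none of those tested passed. Tnnc2, a skeletal muscle troponin, had a mean of 0.569 and no adjusted p, so it was not tested. Myh11, a smooth muscle myosin heavy chain, had a mean of 4170. Acta1, the skeletal actin, had a mean of 616, Acta2, the vascular smooth muscle actin, 1724, and Actg2, the enteric smooth muscle actin, 1258. Among light chains, Myl1, of fast skeletal muscle, had 230, and Myl9, of smooth muscle, 240. Among troponins, Tnni1 and Tnnt1, of slow muscle, had 30.3 and 6025, and Tnni2 and Tnnt3, of fast muscle, 311 and 337. In spleen these fast troponins had means of 572 for Tnni2 and 606 for Tnnt3, and the SE of the log2 mean of Tnnt3 in heart was 1.05, larger than its gap to spleen. Of 20 skeletal muscle genes tested in heart, 9 were positive with a median of -0.10, and none passed (2 at an unadjusted p under 0.05). Ckm, with the highest heart mean of that list, had 0.39 ± 0.19 (DESeq2 unadjusted p = 0.0400, adjusted p = 0.432).

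The genes whose levels over the 5 tables most resembled those of the members were found by the Euclidean distance between log2 levels (with 1 added to each mean), each gene centred on its own average over the 5 tables, among genes with a heart mean of at least 1000. The nearest was Nppb at a distance of 0.165, followed by Txlnb, a muscle taxilin, at 0.345, Myoz2 at 0.349 and Ckmt2 at 0.383. Mir1a-1, the gene of a muscle microRNA, Lmod2, Cav3, the muscle caveolin, and the unnamed gene model Gm29346 followed at 0.430, 0.431, 0.443 and 0.460. Outside heart, Mir1a-1 had means of only 2.55 to 6.17 and Gm29346 of 3.04 to 7.64, without an adjusted p, so their distances rest on few tags. No error was computed for any distance. The members' own distances ran from 0.308 for Tnnt2 to 1.65 for Ttn, and Myh7 stood at 1.18. Myl3 stood at 0.582, so that Ttn, Myh7 and Myl3 lay further from the members' average pattern than those 8 genes.

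One gene related to myosin light chains did pass in heart and was named after its values were seen. Mylk4, of the myosin light chain kinase family, had the smallest adjusted p of the heart table, with a mean of 920, 236 in wild-type and 1604 in deficient mice. Its log2 fold change was 2.77 ± 0.37 (SE, n = 3 per genotype, DESeq2 adjusted p = 2.52e-09). In the other tables it stood at 0.32 ± 0.60 (brain-named), -0.05 ± 1.48 (kidney), 0.13 ± 1.08 (liver-named) and -0.88 ± 0.84 (spleen), none passing. The ventricular and atrial regulatory light chains Myl2 and Myl7, of the protein class that such kinases act on, had log2 fold changes of 0.0042 and -0.54 in the same hearts.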

How the data were processed

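Libraries of uncapped poly(A) RNA were made from whole organs, per the labels, and counted against GRCm39 with featureCounts (Subread 2.0.3) and compared with DESeq2 by the authors, per the submitters' processing notes. The version and model of the authors' DESeq2 are not given in the sources used here. The deposited mean is a signal in normalized counts over all libraries of an organ. The deposited log2 fold change and its standard error, the deposited Wald score, p-value and adjusted p-value were used as given by the authors. Depth per library is unknown, and precision rests on the deposited standard error. Each table's 1 unnamed row was left out.

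Genotype means, intervals (95%, normal) and coefficients of variation were derived for equal groups and a model of genotype alone. Differences between tables used a z with Benjamini-Hochberg adjustment. Both steps were run on simulated data. For the genotype means and coefficients of variation, the simulation was given the true spread between libraries. Recovery of the coefficient was therefore fixed in advance, and how the authors' model estimates this spread was not tested. For the differences, independent normal errors were drawn from the deposited SE, without the shared mice. Planted log2 differences of 3 were found in 46% (kidney) to 69% (brain-named) of cases. Differences as small as those of the members were not simulated. The members and lists were chosen with earlier results of these data known. Named genes are all members, their muscle paralogs, the 8 genes nearest in level, and, of each list, genes past the threshold and those of highest heart mean (3 for the sarcomere lists). Atp2a2, Mylk4, the microRNAs, the genes at 0 and the atrial and stress genes were named after their values were seen. Alternatives were thresholds, filters, centring, rescaled statistics and 3 scalings across tables. The tools were Python 3.11.15, scipy 1.17.1, pandas 2.3.3, numpy 2.4.6 and, for figures, matplotlib 3.10.9.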

Additional observations from a re-analysis of the deposited data

How the results depend on the processing

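The number of members past the threshold was 0 in each table and in each difference between tables under every alternative run. Over all genes, the counts past the threshold were 236, 407, 50, 73 and 45 (order: heart, kidney, spleen, then brain-named and liver-named), and 90, 184, 21, 14 and 8 at a false discovery rate of 1%, 381, 606, 78, 155 and 125 at 10%, 185, 321, 38, 38 and 30 with adjustment over every p-value, and 48, 169, 79, 9 and 2 with the test statistic divided by its robust spread. Differences from heart passed for 86 genes (kidney), 61 (brain-named), 43 (liver-named) and 32 (spleen), and for 34, 12, 8 and 26 with z divided by its spread. Mylk4 passed under each alternative run, while the calls of Ighm, Mypn and Pdlim5 were lost with the rescaled statistic and at 1%, those of Ighm and Mypn with adjustment over every p-value (0.0795 and 0.0565), and that of Pdlim5 at a minimum log2 fold change of 1. The causes were not tested. Centring on the median gene turned the sign of 4 near-zero estimates, to -0.024 for Myl2, -0.027 for Tnni3 and -0.014 for Ttn in heart and to -0.0068 for Myl7 in spleen. The median ratio of heart to the liver-named table was 403 with a scaling factor from genes shared by all tables, in place of 163, and that to kidney 449 in place of 262, and 13 ratios of single members moved by more than their spread, none below 1. No paired analysis was possible because the tables hold no values per library. For the same reason, leaving out each mouse in turn and the litter as a block were not run. Depth per library is unknown.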
